A study of Mus musculus with 2 samples.

Results

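The clustered protocadherins are a family of neuronal cell-surface genes that stand side by side on mouse chromosome 18 in an alpha, a beta and a gamma cluster. Members were chosen by gene symbol (Pcdha, Pcdhb and Pcdhg followed by a number, or by the letters and numbers of the gamma A, B and C and the alpha C genes). The rule found 58 gene identifiers of the 55536 genes in the gene tables, with 14 in the alpha, 22 in the beta and 22 in the gamma cluster. They carry 57 symbols, because 2 identifiers are both named Pcdha11. The upstream one (ENSMUSG00000007440.10, 37005203 to 37187657) starts 117 bases from where RefSeq, on the same mouse build, places Pcdha10. The downstream one (ENSMUSG00000102206.5, 37010712 to 37187657) starts where RefSeq places Pcdha11, and for 57 of the 58 identifiers the nearest RefSeq start carries the same symbol.

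Each alpha and gamma gene has a long first exon of its own, which encodes the cadherin repeats outside the cell, the membrane segment and the start of the tail, and is spliced to 3 constant exons at the end of its cluster that encode a tail shared by the whole cluster. Beta genes lack constant exons. In a given neuron a few variable promoters are known to be chosen apparently at random, under CTCF, cohesin and DNA methylation, and the resulting mixture of proteins lets processes of one neuron recognise each other. The C-type genes (Pcdhac1, Pcdhac2, Pcdhgc3, Pcdhgc4 and Pcdhgc5) lie last in the alpha and gamma clusters and are known to be more broadly used than the variable ones. Bulk RNA gives the sum over all cells, so more neurons that choose a promoter and more RNA per choosing neuron cannot be told apart.

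Total RNA was taken at 14 days of age from the cerebral cortex of the left side in B6CASTF1/J females, hybrids with 1 genome from C57BL/6J and 1 from CAST/EiJ. Ribosomal RNA was reduced, and ERCC spike-ins, synthetic RNAs of known amount, were added to 300 ng of RNA per library. All data are from 1 group of 2 libraries, replicate 2 and replicate 1, with no treatment, genotype or age contrast. The labels name them biological replicates with the same donor entry and speak in their shared description of 3 females. The tissue label names 1 female by a number for replicate 2 and 3 females for replicate 1, so the number of mice per library is not known and the spread between the libraries may be partly technical. Transcripts were counted against the C57BL/6J reference, which holds no CAST/EiJ sequence. Genes received 32013950 counts in replicate 2 and 33362673 in replicate 1. The tissue label fits its markers: the cortical neuron genes Tbr1, Neurod6, Slc17a7 and Camk2a were detected, between 37.3 TPM for Neurod6 and 865 TPM for Camk2a in replicate 2 and between 36.4 and 916 TPM for the same genes in replicate 1. The serotonin neuron gene Fev was at 0 in each library, and Slc6a4 had 0 TPM in replicate 2 and 0.02 TPM in replicate 1. Tph2, the remaining gene of that list, was low but present, with 0.67 TPM (35 counts) in replicate 2 and 0.77 TPM (30 counts) in replicate 1.

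Nearly the whole family was detected. Of the 58 members, 57 reached 1 TPM (a level scaled by transcript length and library depth, so that all transcripts of a library have the same sum) in both libraries, beside 26.6% of all genes and 58.8% of nuclear protein-coding genes. The exception was Pcdhb1, the first gene of the beta cluster, with 7 counts in replicate 2 (exact Poisson 95% interval 2.81 to 14.4) and 6 in replicate 1 (2.20 to 13.1), or 0.14 TPM in replicate 2 and 0.11 TPM in replicate 1. The promoters of most clustered genes share a conserved sequence element that binds CTCF, and Pcdhb1, Pcdhac2, Pcdhgc4 and Pcdhgc5 are known as the genes without it. These 4 genes were the lowest member and 3 of the 4 highest by the gene table.

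By the gene table the 4 highest members were C-type genes. Summed over all members the level was 478 TPM in replicate 2 and 481 TPM in replicate 1 (479 ± 2.23, SD, n = 2). The gamma cluster held 62.4% ± 1.01 of this (295 TPM in replicate 2 and 304 TPM in replicate 1), the alpha cluster 23.2% ± 0.183 (112 and 111 TPM) and the beta cluster 14.4% ± 0.831 (71.5 and 66.3 TPM). The 3 gamma C-type genes alone made up 40.5% ± 1.41 of the family. In the read-based table described below they made up 34.5% in replicate 2 and 33.1% in replicate 1. The median member had 4.57 TPM in replicate 2 and 4.21 TPM in replicate 1, against 23.7 TPM and 21.5 TPM in these libraries for the 12 non-clustered protocadherin genes.

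**Figure D1:**
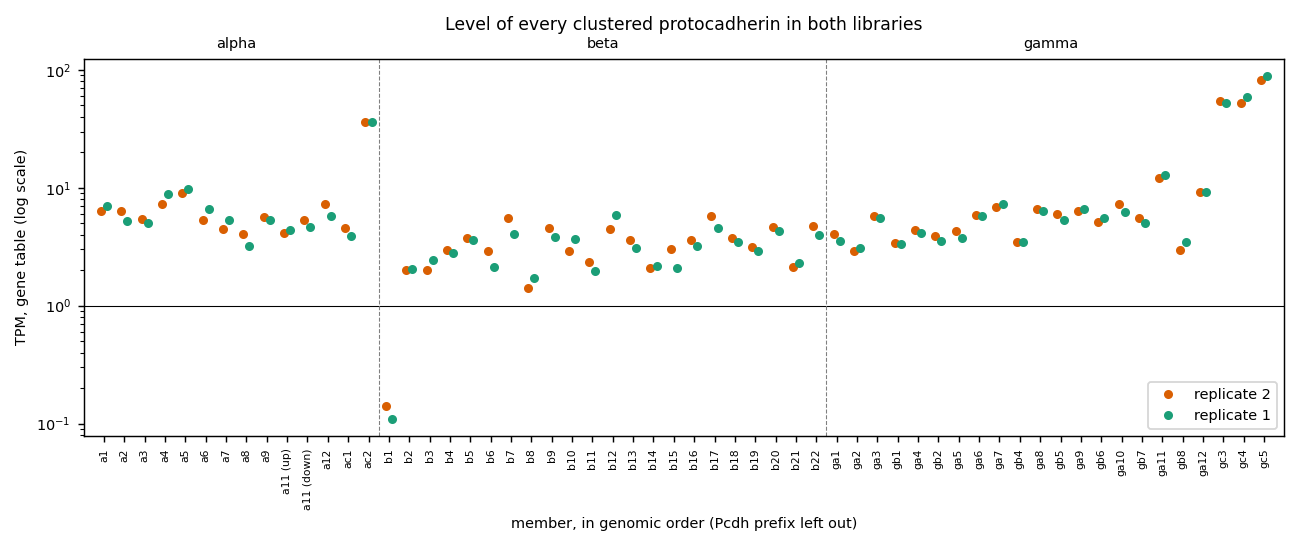
TPM of each of the 58 members (log scale) in genomic order, replicate 2 in orange and replicate 1 in green, with dashed lines between the clusters and a solid line at 1 TPM. Pcdhgc5, Pcdhgc4, Pcdhgc3 and Pcdhac2 stand above all variable members, Pcdhac1 lies among them, and Pcdhb1 is the one member below the line.

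Pcdhgc5, known to be used more after birth in the rodent cortex, was the highest member with 82.8 TPM in replicate 2 and 88.9 TPM in replicate 1 (85.9 ± 4.29, SD, n = 2). Pcdhgc4, which in mice is the isoform needed for the survival of many interneurons, stood at 52.0 and 58.7 TPM (55.3 ± 4.79). Pcdhgc3, whose own cytoplasmic part binds Axin1 in mouse neurons, stood at 54.0 and 52.0 TPM (53.0 ± 1.43). Pcdhgc4 and Pcdhgc3 overlapped between the libraries, so their order is not resolved by the gene table, whereas Pcdhgc5 was above both in each library. In the read-based table Pcdhgc3 was above Pcdhgc4 in each library, by a log2 ratio of 1.80 in replicate 2 and 1.46 in replicate 1, or 3.10-fold.

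The alpha C-type genes differed from each other. Pcdhac2, known for its part in the spacing of serotonin axons, had 36.2 TPM in replicate 2 and 35.9 TPM in replicate 1 (36.1 ± 0.212, SD, n = 2), while Pcdhac1 stood at 4.57 and 3.90 TPM (4.24 ± 0.474), 8.37-fold lower (log2 ratio of Pcdhac2 to Pcdhac1 3.07 ± 0.15). Of the 53 variable members, 26 had a lower mean than Pcdhac1. The C-type mean exceeded the variable mean more in the gamma than in the alpha cluster. In the gamma cluster the C-type genes averaged 62.9 TPM in replicate 2 and 66.5 TPM in replicate 1, against 5.59 TPM and 5.48 TPM for the variable genes, a log2 ratio of 3.55 ± 0.08 (SD, n = 2) or 11.7-fold. In the alpha cluster the C-type genes averaged 20.4 and 19.9 TPM in these libraries, against 5.89 and 5.93 TPM for the variable genes, a log2 ratio of 1.77 ± 0.03 or 3.41-fold. With 2 libraries an exact sign-flip test cannot go below p = 0.5, so these ratios are descriptions.

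The spread among variable members differed by cluster. By the gene table the 12 alpha variable genes spanned 2.59-fold by their means, from 3.64 to 9.42 TPM. Pcdha5 was highest with 9.05 TPM in replicate 2 and 9.78 TPM in replicate 1, followed by Pcdha4 at 7.25 and 8.77 TPM. Pcdha8 at 4.07 and 3.20 TPM and the upstream Pcdha11 entry at 4.16 and 4.36 TPM were lowest. By the gene table values these 4 genes kept their order in each library without overlap. The quantifier's own TPM intervals overlapped in replicate 2 for Pcdha8 (3.43 to 4.49) and the upstream Pcdha11 entry (3.50 to 4.56). In the read-based table the order held in replicate 1 but not in replicate 2. There Pcdha4 had 5.28 TPM, below Pcdha8 (5.43 TPM) and the upstream Pcdha11 entry (5.32 TPM).

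Gamma A genes had higher levels toward the end of the cluster. The 12 genes spanned 4.16-fold, and their level followed genomic order (Spearman rho 0.91 over 12 genes, and 0.92 with the read-based TPM described below, as a description of neighbouring genes in the same libraries). Pcdhga11 was the highest variable member of the family with 12.1 TPM in replicate 2 and 12.9 TPM in replicate 1, and Pcdhga12 next to it stood at 9.13 and 9.25 TPM. At the start of the cluster Pcdhga2 stood at 2.92 and 3.09 TPM and Pcdhga1 at 4.02 and 3.55 TPM. The relation with genomic order was weaker for the gamma B genes, which are interspersed among the gamma A genes (rho 0.07 over 7 genes), and for the beta genes (0.40 over 22). For the alpha variable genes rho was -0.43 over 12, and -0.01 with the read-based TPM. Whether these differ was not tested.

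Among the groups of variable genes, gamma B genes spanned the least, 1.75-fold, but with 7 genes they are also the smallest group. Pcdhgb5 with 6.0 TPM in replicate 2 and 5.38 TPM in replicate 1 and Pcdhgb6 at 5.16 and 5.52 TPM were highest, and their order turned between the libraries. Pcdhgb1 at 3.39 and 3.35 TPM and Pcdhgb8, annotated as a polymorphic pseudogene, at 2.99 and 3.50 TPM were lowest. The beta genes had the lowest median of the variable groups, 3.11 and 2.97 TPM, followed by gamma B genes with 3.89 and 3.51 TPM. The ranges of these 2 groups overlapped. Alpha variable genes had medians of 5.54 and 5.35 TPM and gamma A genes 6.11 and 5.99 TPM. Pcdhb12 at 4.47 and 5.88 TPM and Pcdhb17 at 5.72 and 4.58 TPM led the beta cluster but changed places between the libraries, and Pcdhb8 at 1.42 and 1.70 TPM was the lowest after Pcdhb1.

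The rank correlation between the libraries was highest among the gamma A genes (Spearman rho 0.95 over 12 genes), followed by the beta genes (0.89 over 22), the gamma B genes (0.83 over 7) and the alpha variable genes (0.78 over 12). These correlations are across genes that share libraries and sequence, not across independent samples. They also depend on how far apart the levels in a group lie, which was 4.16-fold for gamma A and 2.59-fold for alpha variable genes. Whether the groups differ in agreement between the libraries was not tested.

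The shared tail takes up a large part of each alpha and gamma transcript. Exon segments present in most members of a cluster were taken as constant, which found 3 segments in each cluster of the GENCODE M21 annotation on mm10. In the alpha cluster they are 59, 89 and 2712 nucleotides long, at 37156155 to 37156213, 37159265 to 37159353 and 37184946 to 37187657 on chromosome 18. In the gamma cluster they are 59, 89 and 1971 nucleotides long, at 37825021 to 37825079, 37833265 to 37833353 and 37839903 to 37841873. Transcripts with all 3 segments consist of constant sequence to a median of 53.4% in the alpha and 44.9% in the gamma cluster, so a read from that part fits most members of the cluster.

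Transcripts with a constant segment carried nearly all of the level. In the alpha cluster they held 97% of TPM in replicate 2 and 98.9% in replicate 1 (97.9% ± 1.37, SD, n = 2), and in the gamma cluster 96.6% in replicate 2 and 97.7% in replicate 1 (97.1% ± 0.811). The rest went to 2 alpha and 11 gamma transcripts with none of the segments, of which the alpha ones are annotated as retained introns. These transcripts belong to 2 alpha and 11 gamma genes. All other alpha and gamma members have only annotated transcripts with a segment, so for them the annotation fixes the share in advance. The cluster shares therefore partly describe the annotation. Pcdhgb2-201, which lacks constant exons, had 103 counts in replicate 2 and 0 in replicate 1, while the full-length Pcdhgb2-202 had 187 in replicate 2 and 344 in replicate 1. The gene total of 291 counts in replicate 2 and 344 in replicate 1 was not called between the libraries (exact binomial adjusted p = 0.138).

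In the alpha cluster there is also an alternative end, in which an intron of 428 nucleotides is removed from the last constant exon. This is known to give alpha proteins with another end of the tail. The annotation lists it for 6 transcripts of 5 genes (Pcdha1, Pcdha2, Pcdha4, Pcdha6 and the downstream Pcdha11 entry), all of which also have the unspliced form. The spliced forms held 11.9% of alpha cluster TPM in replicate 2 and 12.7% in replicate 1 in the alignment-based table and 10.6% and 11.8% in the read-based one. These shares are of all 14 alpha genes, while a spliced form is annotated for 5. Spliced RNA of the other alpha genes has no spliced transcript of its own gene to be counted on. As the exon is shared, its reads over the splice also fit the spliced forms of those 5 genes. The shares therefore do not measure the cluster's use of this end. Within genes the division was not stable. Pcdha1 had all of its 629 counts in replicate 2 and 731 in replicate 1 in the spliced Pcdha1-202 by alignment, while the read-based table gave Pcdha1-202 353 and 404 counts and the unspliced Pcdha1-201 240 and 299. Of the 100-nucleotide windows of Pcdha1-201, 0 are found in that transcript alone, and Pcdha1-202 has 101 such windows among 4826.

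The clusters differ in how much of each gene is its own. Of all 100-nucleotide windows in a gene's annotated transcripts, a median of 44.6% occurred in no other gene for the alpha members (11.6% for Pcdha4 to 58.4% for the downstream Pcdha11 entry), 56.4% for the gamma members (37.3% to 69.2%) and 99.8% for the beta members (92.3% to 100%). The lowest beta values belonged to Pcdhb21 and Pcdhb22, whose annotated ends overlap. The first exon of Pcdha4 is also annotated in Gm42416 (36952741 to 37840200), a transcript that joins it to gamma constant exons.

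The deposited posterior standard deviation of the count, the quantifier's own error of division, was higher where more sequence is shared. It reached at most 2.49 reads or 1.11% of the count in the beta cluster, against 1.11% to 7.03% in the alpha and 0.946% to 9.02% in the gamma cluster. Over 57 members with 20 counts or more it was lower where the share of own windows was higher (Spearman rho -0.86, a description over members that share both libraries and differ in depth). Among the 55 members with 100 counts or more it exceeded the square root of the count, the error of counting alone, in both libraries for 14 (25.5%), against 2.65% of 12480 genes at that depth and 0 of 11 non-clustered protocadherins. Of those 14, 10 were alpha variable genes, 4 were gamma genes and 0 were beta genes. The largest error in reads was that of Pcdhgc4, with 112 reads on 3072 counts in replicate 2 and 121 reads on 3411 counts in replicate 1.

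**Figure D2:**
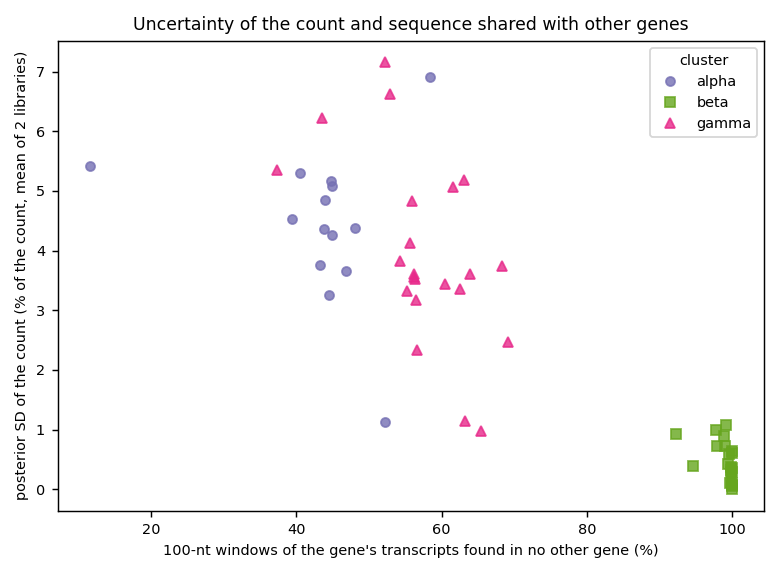
Posterior standard deviation of the count as a percentage of the count (mean of 2 libraries, y axis) against the percentage of a gene's 100-nucleotide windows found in no other gene (x axis), for 57 members without Pcdhb1, by cluster. Beta members lie at 92.3% or more with errors of 1.08% or less, and all variable alpha and gamma members lie at 69.2% or less with larger errors.

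Both libraries were quantified in a second way, from the reads without the alignment used for the gene table, and this allows the members' levels to be compared between methods. Ratios are log2 of (gene-table TPM + 0.1) over (read-based TPM + 0.1), centred on the median of protein-coding genes, which was -0.59 in replicate 2 and -0.57 in replicate 1 before centring. At a limma adjusted p under 0.05 and 2-fold or more, 2 of 57 tested members were called, beside 7.2% of 19295 tested genes. With so few members called, the shares are not read as different, and their difference was not tested. The members' median was 0.14, with 53 of 57 above 0, and 54 lay within 0.5 of 0. Members of the beta cluster had a median of 0.21, and limma called 0 of 21, with 14 at an unadjusted p under 0.05.

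The members called were Pcdhgc4, higher by alignment, and the downstream Pcdha11 entry, lower by alignment. Pcdhgc4 had 52.0 TPM in replicate 2 and 58.7 TPM in replicate 1 by alignment against 21.5 and 26.1 TPM in these libraries from the reads, a centred log2 ratio of 1.85 in replicate 2 and 1.74 in replicate 1 (mean 1.79 ± 0.08, SD, n = 2, limma adjusted p = 0.022). The Pcdha11 entry stood at 5.38 and 4.67 TPM by alignment against 33.3 and 23.9 TPM from the reads, with ratios of -2.02 and -1.76 (mean -1.89 ± 0.18, limma adjusted p = 0.0367). The methods did not overlap for either gene. Both calls were lost with no filter on low values (limma adjusted p = 0.0515 for Pcdhgc4 and 0.0717 for the Pcdha11 entry), and on the CPM scale, which leaves length out, the ratio of Pcdhgc4 was 1.03 and called and that of the Pcdha11 entry -0.15 and not called. In the read-based table this entry ranked 4th in the family and Pcdhgc4 5th, against ranks of 26 and 2 by alignment. Pcdhgc5 (125 and 99.9 TPM), Pcdhgc3 (75.0 and 72.1 TPM) and Pcdhac2 (52.7 and 50.6 TPM) were the first 3 members in the read-based table.

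**Figure D3:**
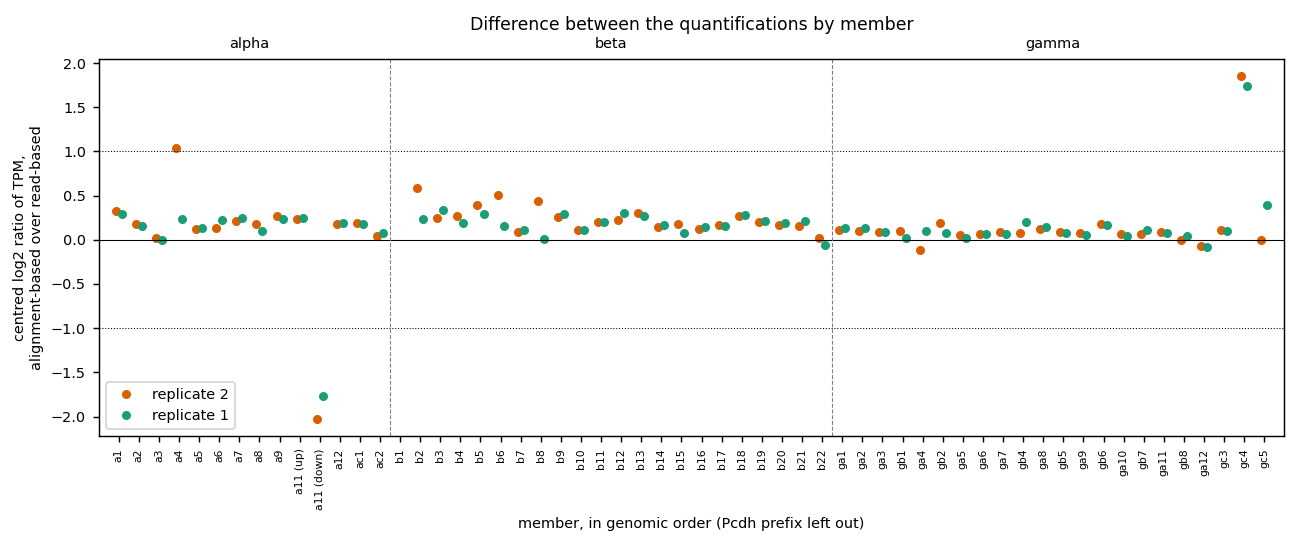
Centred log2 ratio of TPM, alignment-based over read-based, for each tested member in genomic order, replicate 2 in orange and replicate 1 in green, with dotted lines at 2-fold. Pcdhgc4 lies near 1.8 and the downstream Pcdha11 entry near -1.9 in both libraries, while Pcdha4 is beyond 2-fold in replicate 2 alone (1.03 and 0.24).

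The difference of Pcdhgc4 lay in 1 short transcript made almost wholly of constant exons. Pcdhgc4-203 has 2272 nucleotides, of which 2119 (93.3%) are constant and 153 are not. Of its 2173 windows, 97 occur in no other transcript. The alignment-based table gave it 1690 counts in replicate 2 and 2143 in replicate 1, or 37.9 and 46.0 TPM, while it had 0.09 and 230 counts from the reads. The full-length Pcdhgc4-201 of 5024 nucleotides had 1311 and 1142 counts by alignment against 1598 and 1467 from the reads. By that transcript alone Pcdhgc4 would stand at 13.0 and 10.8 TPM by alignment and 20.7 and 18.0 TPM from the reads, beside the 12.1 and 12.9 TPM of Pcdhga11 by alignment.

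In the read-based table a gene outside the family held counts on a transcript with the same exons. Gm38182 (37823879 to 37840382), annotated as a processed transcript, starts upstream of the first gamma constant exon and has transcripts that run into the constant exons. Its transcript Gm38182-205, 742 nucleotides long and 84.4% constant, had 553 counts in replicate 2 and 599 in replicate 1, or 84.9 and 86.0 TPM, from the reads and 0 counts by alignment in both libraries. Summed over the 22 gamma members the methods gave close totals, 24293 and 25737 counts by alignment against 24406 and 25567 from the reads, a difference of -0.465% in replicate 2 and 0.667% in replicate 1. With the 4 non-member genes that hold gamma constant exons added, the difference was -3.49% in replicate 2 and -1.80% in replicate 1. Pcdhgc4 alone was 88.1% and 94.7% higher by alignment, and the other 21 gamma members together differed by -6.82% and -6.25%. Pcdhgc4 is singled out here for its large difference between the tables, so it does not stand for single gamma genes in general. Of the 22 gamma members, 21 lay within 0.5 of 0 in the centred log2 ratio of TPM.

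**Figure D4:**
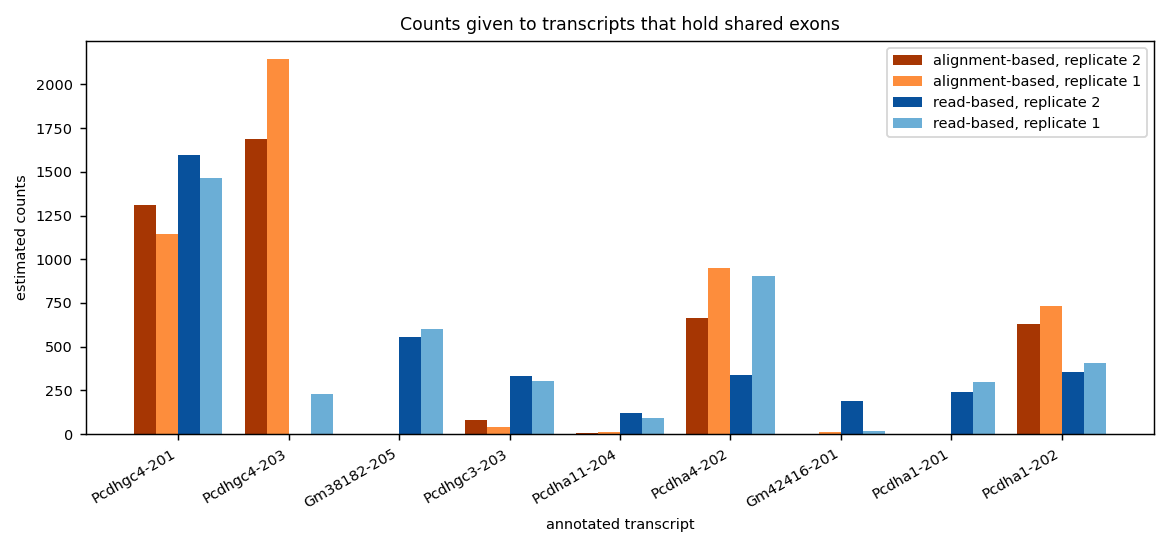
Estimated counts of 9 annotated transcripts that hold sequence shared with others, for the alignment-based table (reds, replicate 2 then replicate 1) and the read-based table (blues, in the same order). Pcdhgc4-203 has counts mainly by alignment, Gm38182-205 only from the reads, and Pcdha4-202 and Gm42416-201 differ between tables in replicate 2.

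The difference of the Pcdha11 entry also lay in a short transcript, here higher from the reads and with few of them. Pcdha11-204 has 625 nucleotides, 67.2% of them constant, and had 4.54 counts in replicate 2 and 13.3 in replicate 1 by alignment against 122 and 94.5 from the reads. Because a short transcript turns few reads into a high TPM, this was 0.42 and 1.18 TPM by alignment and 26.5 and 19.1 TPM from the reads. In counts the gene differed less, with 389 and 332 by alignment against 493 and 369 from the reads. Another short form, Pcdhgc5-204 with 593 nucleotides, had 186 and 220 counts by alignment against 135 and 18.6 from the reads, which is 18.3 and 20.8 TPM against 32.9 and 4.24 TPM, and the read-based TPM of Pcdhgc5 as a whole lay further apart between the libraries than that by alignment.

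Pcdha4 had the next largest positive ratio, 1.03 in replicate 2 and 0.24 in replicate 1, and was not called (mean 0.64, limma adjusted p = 0.251). It had 729 counts in replicate 2 and 974 in replicate 1 by alignment against 393 and 935 from the reads, and Gm42416 had 0 and 13.9 counts by alignment against 191 and 14.7 from the reads. Together they had 729 and 988 counts by alignment against 584 and 949 from the reads, so the tables stayed apart in replicate 2 by 24.7% after the sharing gene was added. After Pcdha4 came Pcdhb2 (0.41), Pcdhb5 (0.34) and Pcdhb6 (0.33), none of them called. On the negative side only Pcdhga12 (-0.08), Pcdhb22 (-0.02) and Pcdhga4 (-0.01) followed the Pcdha11 entry. The annotated genes Gm37013 and Gm37388, which also reach into the gamma constant exons, had 0 counts in both tables and libraries.

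Genes on the opposite strand added little. There are 9 annotated genes whose exons overlap member exons on the other strand, with at most 72 counts and 1.58 TPM each. The sources used here do not say whether the counting used strand, so reads of these genes and of the members they overlap cannot be told apart with certainty.

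In the alignment-based counts no called member differed between the libraries by 1.5-fold or more. In a 2-sided exact binomial test on counts scaled by TMM, which takes counting error alone and compares these libraries and not conditions, 15 of 57 tested members were called at an adjusted p under 0.05, beside 20.3% of 18887 genes. Of these 6 were higher in replicate 2, beside 8.88% of all genes, and 9 were lower, beside 11.4%. The median log2 ratio was -0.01 for the members and 0.00 for all genes tested. The direction depended on the scaling: 9 members were called higher and 5 lower when counts were divided by the library total, and 9 and 6 when divided by the spike-in total, where over all genes 2733 and 2570 were called higher and 1145 and 1229 lower, beside 1678 higher and 2152 lower with TMM. When a dispersion of 0.01 was assumed, edgeR called 0 of 57 members, also 0 at an unadjusted p under 0.05, beside 0.964% of all genes.

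**Figure D5:**
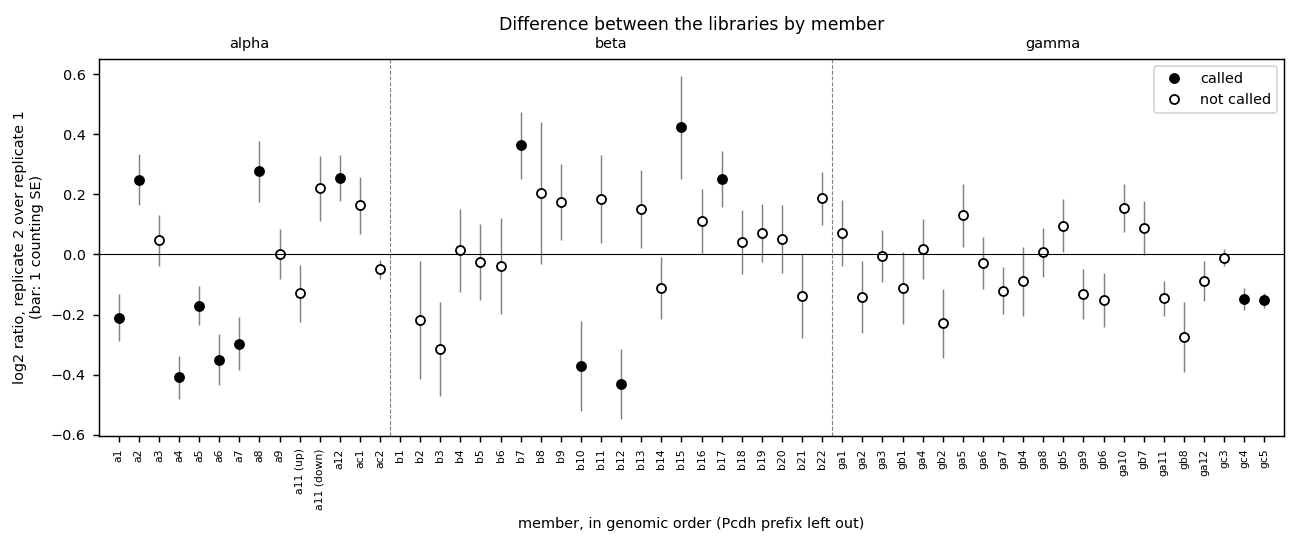
Log2 ratio of normalised counts, replicate 2 over replicate 1, for each tested member in genomic order, with bars of 1 counting standard error, filled where the exact binomial test called the member. Called members are 8 of 12 alpha variable genes in both directions, 5 beta genes and 2 gamma C-type genes, against 0 of 19 gamma A and gamma B genes.

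The calls were uneven over the clusters, which was not tested. Among alpha variable genes 8 of 12 were called, 3 higher and 5 lower in replicate 2, against 0 of 19 gamma A and gamma B genes, whose mean counts were similar (289 to 1223, against 361 to 1011 for alpha). Of these 19 genes 4 had an unadjusted p under 0.05 in the exact binomial test, 1 was called when counts were divided by the library or the spike-in total, and 3 were called in the read-based table. The median size of the ratio was 0.23 for the alpha variable and 0.11 for the gamma variable genes. Of the 5 alpha genes that were lower in replicate 2, 4 are neighbours, Pcdha4 to Pcdha7, and the other is Pcdha1. For 10 of these 12 alpha genes the division error was also larger than the counting error, and it is not part of the binomial test. With both errors added, 10 of the 57 tested members were called and 2 standard errors or more from 0, beside 18.1% of all genes tested, and 4 of these 10 were alpha genes. Of the 15 called members 5 were thus lost, whereas 89.2% of all called genes stayed beyond 2 standard errors.

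Among members higher in replicate 2, Pcdhb15 had 169 counts against 122 in replicate 1 (log2 ratio 0.42 ± 0.17, counting SE, exact binomial adjusted p = 0.0324) and Pcdhb7 had 384 counts against 295 in replicate 1 (0.36 ± 0.11). Pcdha8 (0.28 ± 0.10), Pcdha12 (0.25 ± 0.08) and Pcdhb17 (0.25 ± 0.09) followed. Among those lower in replicate 2, Pcdhb12 had 270 counts against 370 in replicate 1 (-0.43 ± 0.12, exact binomial adjusted p = 0.000929) and Pcdha4 had 729 counts against 974 in replicate 1 (-0.41 ± 0.07). Pcdhb10 (-0.37 ± 0.15), Pcdha6 (-0.35 ± 0.08) and Pcdha7 (-0.30 ± 0.09) followed. Pcdha4 was at -1.23 in the read-based table, where its counts in replicate 2 stood beside those of Gm42416. Pcdhgc5, with 6244 counts in replicate 2 and 6948 in replicate 1, and Pcdhgc4 were called at ratios of -0.15 each.

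Markers of other cell types differed between the libraries as well. All 6 markers of myelinating oligodendrocytes were called lower in replicate 2, with a median log2 ratio of -0.90 and a summed level of 1255 TPM against 2245 TPM in replicate 1. All 6 choroid plexus markers were called higher, with a summed level of 139 TPM against 12.6 TPM in replicate 1, most of it Ttr (131 against 9.86 TPM). The 6 interneuron markers summed to 459 TPM against 457 TPM in replicate 1, and 1 of them, Pvalb, was called lower (18.5 against 22.6 TPM, log2 ratio -0.36). Of the 4 fibroblast markers 2 were called higher, and the excitatory neuron genes Tbr1 (-0.16), Slc17a7 (-0.12) and Camk2a (-0.14) were called lower. The ratios of the called members, at most 0.43 in size, were smaller than those of the myelin list. The part of cell composition in the members' differences was not tested.

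Genes that act with the family were expressed throughout. Of 24 genes of promoter choice and chromatin, 23 were detected, with a median of 22.7 TPM in replicate 2 and 22.1 TPM in replicate 1, led by the DNA methyltransferase Dnmt3a at 160 and 166 TPM and Trim28, a corepressor that works with Setdb1, at 106 and 92.5 TPM. The exception was Dnmt3b, which sets methylation of these promoters in the mouse embryo, at 0.47 and 0.63 TPM. All 16 intracellular partners were detected, with a median of 74.0 and 84.6 TPM, led by Abi2 (211 and 207 TPM) and Cyfip2 (179 and 200 TPM), subunits of the WAVE complex that alpha protocadherins bind. The kinases Ptk2 (61.7 and 63.0 TPM) and Ptk2b (92.4 and 94.1 TPM), known to be held back by the constant tail, were among them. All 6 genes of shedding, the protease Adam10 and the gamma-secretase subunits, were detected with a median of 36.0 and 36.3 TPM, led by Psenen at 38.3 and 37.6 TPM and Aph1a at 37.4 TPM in each library.

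Between the libraries 17 of 56 tested genes of these lists and of other genes of the locus were called, beside 20.3% of all genes, with 4 higher in replicate 2 (8.88% of all genes) and 13 lower (11.4% of all genes). None of the called differed by 1.5-fold. Of the 16 intracellular partners 9 were lower, with a list median of -0.10, beside 0.00 for all genes. Of the 10 other protein genes of the locus 8 were detected, led by Zmat2 with 61.2 TPM in replicate 2 and 62.6 TPM in replicate 1 and Hars at 52.3 and 52.9 TPM. Taf7, which lies between the beta and gamma clusters, stood at 3.54 and 3.20 TPM, within the range of the beta members, and Slc25a2, also there, at 0.34 and 0.44 TPM.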

How the data were processed

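Deposited by the authors were, per library, gene and transcript values made from alignments to the transcriptome and further transcript values made from the reads, all on mm10 with GENCODE M21, per the readme files. The sources used here do not give the tools, their settings or the use of strand. Expected and estimated counts are estimated reads per feature, not normalised, per the file headers. The deposited TPM values sum to 1e6 over all rows of a table. Length minus effective length was 99 nucleotides in the authors' first tables and 347 and 341 nucleotides (replicate 2 and replicate 1) in the second, where values were summed per gene. The posterior standard deviation of the count was used as deposited by the authors.

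Members and lists were chosen with earlier results of these data known. Libraries were compared by an exact binomial test on rounded counts (scipy 1.17.1; TMM from edgeR 4.0.16) for 18887 genes that reached 10 counts in either library, and ratios are log2 of (CPM + 0.5). Quantifications were compared with limma 3.58.1 (R 4.3.3; 19295 genes with a mean of 0.5 TPM over the 4 values). Both used Benjamini-Hochberg adjustment over all genes and were tested on simulated data, and neither recovers every change with 2 libraries, limma least where few genes differ, so a member not called cannot be taken as unchanged. As the 2 quantifications use the same libraries, the limma p measures only the spread between these libraries. Fitted prior degrees of freedom were 0.997, so the fit borrowed little from other genes. Counting intervals and the exact binomial p-values cover counting error only, and the edgeR p-values an assumed spread. The spread between the 2 libraries that the limma p-values use may be technical.

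Named in full are the C-type genes, the 2 highest and 2 lowest variable genes of each group, the 5 largest ratios each way between quantifications and, among called members, between libraries, and genes outside the family with constant exons. Other members singled out (Pcdhgb2, Pcdha1 and Pcdhgc5 transcripts, Pcdhb21) were chosen after their values or sequence were seen. Marker lists are given by counts and sums. Alternatives were other scalings, thresholds, pseudocounts, tables and single libraries. DESeq2 1.42.0 gave size factors only, since 1 library on each side cannot be fitted with it.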

Additional observations from a re-analysis of the deposited data

How the results depend on the processing

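No paired analysis was possible because both libraries belong to 1 group. The TPM scale of the cluster sums depends on the table: summed levels were 170 TPM (alpha), 89.9 TPM (beta) and 360 TPM (gamma) in the read-based table and 229, 142 and 617 TPM when scaled over nuclear protein-coding genes, with the same order of the clusters. Leaving out replicate 1 or replicate 2 gave 111 to 112 TPM for alpha, 66.3 to 71.5 TPM for beta and 295 to 304 TPM for gamma, log2 ratios of C-type to variable genes of 1.75 to 1.79 (alpha) and 3.49 to 3.60 (gamma), and shares with constant exons of 97% to 98.9% (alpha) and 96.6% to 97.7% (gamma). Those ratios were 1.60 and 3.14 in the read-based table and 1.89 and 3.36 with medians, and 3.65 for gamma without Pcdhgc4, chosen after seeing the data. The gamma share with constant exons was 95.3% in the read-based table. The count of 57 detected members was the same under all 5 alternatives. Of 15 members called between libraries, 0 were called by edgeR with a dispersion of 0.01, an assumed spread (0 also at an unadjusted p under 0.05), and 10 were called and beyond 2 combined standard errors, an alternative chosen after seeing the data; the other 5 settings called 12 to 15, of which 11 to 15 were among the first 15. Between quantifications, 0 of 58 members were called with no filter on low values (where 1069 of 32114 genes were called and both genes were still beyond 2-fold, with 12 members at an unadjusted p under 0.05 in limma) and 1, Pcdhgc4, on the CPM scale. Dropping 1 library there leaves values without a test, given as the ratios of each library. No sign of a called member was reversed by any alternative run. Depth limits the beta genes most: at mean counts of 75.5 to 545 their counting standard error had a median of 0.13 (log2), against 0.08 for the alpha variable genes.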
